A study of Mus musculus with 6 samples.

Results

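The miR-15/16 family was read in mouse CD8+ T cells by 5 of 350 miRNA assays, named mmu-miR-15a, mmu-miR-15b, mmu-miR-16, mmu-miR-195 and mmu-miR-322 and written here without the species prefix. The members were the mouse-named assays for the guide strand of 6 family names, and the sixth, miR-497, was not analysed here. All samples were CD8+ pMel-1 T cells, whose transgene encodes a receptor that sees the melanoma antigen gp100, and all were primed in culture for 3 days. The DC-primed group had met bone marrow-derived dendritic cells matured with LPS. The B cell-primed group had met splenic B cells carrying an hgp100 peptide. There were 6 samples, with both groups present once in each of 3 rounds. Nothing in the labels ties a round to animals of its own, and p-values here reflect the spread among these 6 samples alone, which may be technical. Nor do they say whether the priming cells were removed before RNA extraction.

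MicroRNAs of this family pair with messenger RNAs through bases 2 to 8 of the mature strand, the seed, and lower the output of cell cycle and survival genes such as the D-type and E-type cyclins and Bcl2. The Dleu2 locus that carries miR-15a and miR-16 is often deleted in human chronic lymphocytic leukaemia. In mouse T cells the family is known to restrain the cell cycle and the formation of memory cells.

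The mature sequences are shown because they define the family and because they bear on how well the assays separate its members. They are the RefSeq sequences of build GRCm38.p6, written 5′ to 3′ with the seed in capitals, and all 5 members were matched.
miR-15a: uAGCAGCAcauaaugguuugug
miR-15b: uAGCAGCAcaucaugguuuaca
miR-16: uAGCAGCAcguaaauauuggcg
miR-195: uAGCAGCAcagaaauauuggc
miR-322: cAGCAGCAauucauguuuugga
miR-503: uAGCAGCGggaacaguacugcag
The 5 members had the same 7 bases in the seed. miR-503, which is encoded beside miR-322 and is not a member, differed from them at the last base of the seed (A8G against miR-16, counted from 1 at the 5′ end). Among 1738 mature entries, 10 distinct mature sequences had the seed of the 5 members, and the other 5, miR-195b, miR-497a, miR-6342, miR-6353 and miR-6419, had no assay among those analysed here.

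The members come from 4 places in the genome. miR-15a lies at chr14:61632075-61632096 on the minus strand inside the long non-coding gene Dleu2, with 117 bases between it and a copy of miR-16 at chr14:61631936-61631957. miR-15b lies at chr3:69009775-69009796 on the plus strand inside Smc4, a condensin subunit gene, with 121 bases between it and the other copy of miR-16 at chr3:69009918-69009939. The miR-16 assay cannot tell these copies apart, since they give the same mature strand. miR-195 lies at chr11:70235062-70235082 on the plus strand. miR-322, the mouse counterpart of human miR-424, lies at chrX:53054306-53054327 on the minus strand inside the long non-coding gene C430049B03Rik, with 256 bases between it and miR-503. In pairwise comparison without gaps, miR-16 and miR-195 shared 19 of 21 bases (the differences are G10A and U11G) and miR-15a and miR-15b shared 18 of 22. miR-16 and miR-322 shared 12 of 22. The assays relied on a forward primer specific to the miRNA and a reverse primer common to all of them, and whether they separate such close relatives was not tested.

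Levels are given as minus dCt, where dCt is the threshold cycle (Ct) minus 1 number per sample set by the authors. A higher level means more miRNA, and 1 unit is a 2-fold difference. DC-primed sample 3 stood apart in its miRNA Ct values. Its median Ct was 31.84, later than the 27.5 and 29.59 of DC-primed samples 1 and 2 and the 27.6, 28.56 and 28.87 of B cell-primed samples 1, 2 and 3. It had 280 assays with a Ct below 35, where the other 5 samples had 327 to 341. All 5 members had a Ct below 35 in all 6 samples, as did 274 of 345 assays with a dCt value, and these were tested. The small RNAs RNY3 and snoRD47 were latest in DC-primed sample 2 rather than 3. RNY3 was at Ct 24.23, 28.96 and 28.09 in DC-primed samples 1, 2 and 3, against 23.74 to 25.5 in B cell-primed samples, and snoRD47 at 21.38, 26.15 and 24.34, against 19.58 to 21.96. miR-322 came closest to the limit, with a Ct of 34.61 in DC-primed sample 3.

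No member of the family differed after DC priming from its level after B cell priming beyond the spread of the samples. limma called 0 of the 5 members at an adjusted p under 0.05, as it called 0 of all 274 assays (0%). At an unadjusted p under 0.05 it called 0 members, beside 8.76% of the tested assays. The samples of the 2 groups overlapped for each member, whereas they did not overlap for 13.5% of the tested assays. The paired p in the authors' deposited table was under 0.05 for 0 members and for 5.22% of its assays. The median difference of the members was -0.38, with 2 higher and 3 lower in DC-primed cells, beside 0.07 over all tested assays. The 5 members of a sample share its RNA and its scaling number, so they are not replicates of the comparison. The samples are bulk RNA, in which fewer cells of a type and less RNA per cell cannot be told apart.

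miR-15b, which is encoded within Smc4, had the largest difference of the family. Its level was 4.60, 2.90 and 0.93 in DC-primed samples 1, 2 and 3, against 5.30, 4.16 and 3.36 in B cell-primed samples 1, 2 and 3. The DC-primed sample was the lower one in every round, with differences of -0.70, -1.26 and -2.43, though the groups overlapped. The difference was -1.47 ± 1.01 (SE), with a 95% confidence interval of -3.78 to 0.84 and a limma adjusted p of 0.835. Of the 5 members miR-15b alone had the same sign in all 3 rounds, as had 25.5% of the tested assays, with 12.8% lower in all 3. Its difference was -0.53 without DC-primed sample 3 and -2.36 without DC-primed sample 1. The authors' deposited table gives miR-15b a ratio of 0.362 for DC-primed over B cell-primed and a paired p of 0.103.

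miR-16, which is made from both the Dleu2 and the Smc4 locus, was the member with the most uneven DC-primed values. Its Ct was 19.55, 24.06 and 30.44 in DC-primed samples 1, 2 and 3, against 21.6, 22.32 and 23.32 in B cell-primed samples 1, 2 and 3. The levels were 6.63, 4.40 and 0.02 in DC-primed samples and 4.75, 4.80 and 4.31 in B cell-primed samples. DC-primed sample 1 was thus above all 3 B cell-primed samples, while sample 2 was within their range and sample 3 below it. The difference was -0.94 ± 1.46 (SE), with an interval of -4.26 to 2.38 and a limma adjusted p of 0.978. By round it was 1.88, -0.40 and -4.29. Without DC-primed sample 3 it was 0.89, so that sample decided its sign.

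miR-15a, the neighbour of miR-16 in Dleu2, had levels of 4.30, -0.22 and -1.90 in DC-primed samples 1, 2 and 3, and of 0.73, 2.34 and 0.25 in B cell-primed samples 1, 2 and 3. DC-primed sample 1 was the highest of the 6, and DC-primed samples 2 and 3 were the lowest. The difference was -0.38 ± 1.46 (SE), with an interval of -3.71 to 2.95 and a limma adjusted p of 0.986. By round it was 3.57, -2.56 and -2.15. Without DC-primed sample 3 the difference was 0.93, and without DC-primed sample 1 it was -2.17.

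miR-322, the X-linked member, had levels of 1.53, -1.63 and -4.15 in DC-primed samples 1, 2 and 3, against -1.85, -2.06 and -3.72 in B cell-primed samples 1, 2 and 3. DC-primed sample 1 was again the highest of the 6 and DC-primed sample 3 the lowest. The difference was 1.12 ± 1.33 (SE), with an interval of -1.91 to 4.16 and a limma adjusted p of 0.971. It was -0.35 without DC-primed sample 1 and 2.49 without DC-primed sample 3. miR-15b and miR-322 were the 2 members with a difference of 1 or more in size, in opposite directions, where 32.1% of the tested assays had 1 of that size.

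miR-195, which is encoded beside miR-497, had another order of samples. Its level was 0.66, 3.60 and 2.86 in DC-primed samples 1, 2 and 3, and 1.77, 2.23 and 2.81 in B cell-primed samples 1, 2 and 3. DC-primed sample 1 was the lowest of the 6 here, and DC-primed sample 2 the highest. The difference was 0.10 ± 0.87 (SE), with an interval of -1.89 to 2.09 and a limma adjusted p of 0.986. By round it was -1.11, 1.37 and 0.05, and without DC-primed sample 3 it was -0.14. The interval still includes a 2-fold difference in either direction, so the data do not show that the level was equal in both groups.

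**Figure D1:**
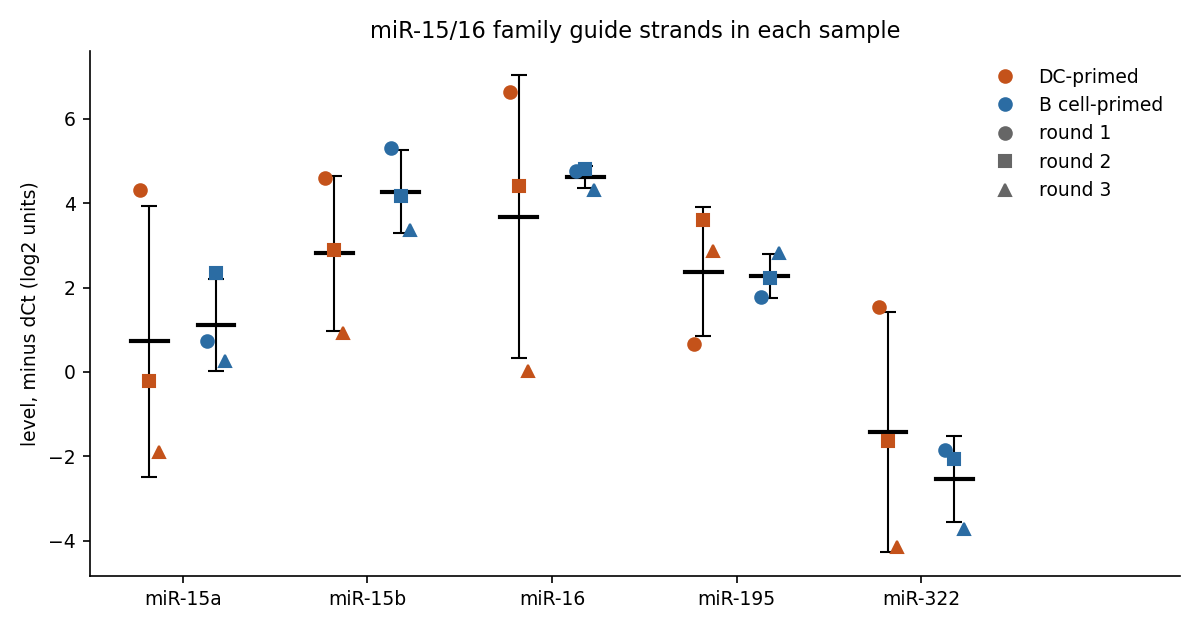
Level (minus dCt, log2 units) of the 5 family members in each sample, with DC-primed samples at the left and B cell-primed samples at the right of each name and the round given by the marker. Bars are the mean and SD of 3 samples. In DC-primed cells the miR-16 level ran from 0.02 to 6.63, against 4.31 to 4.80 in B cell-primed cells.

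**Figure D2:**
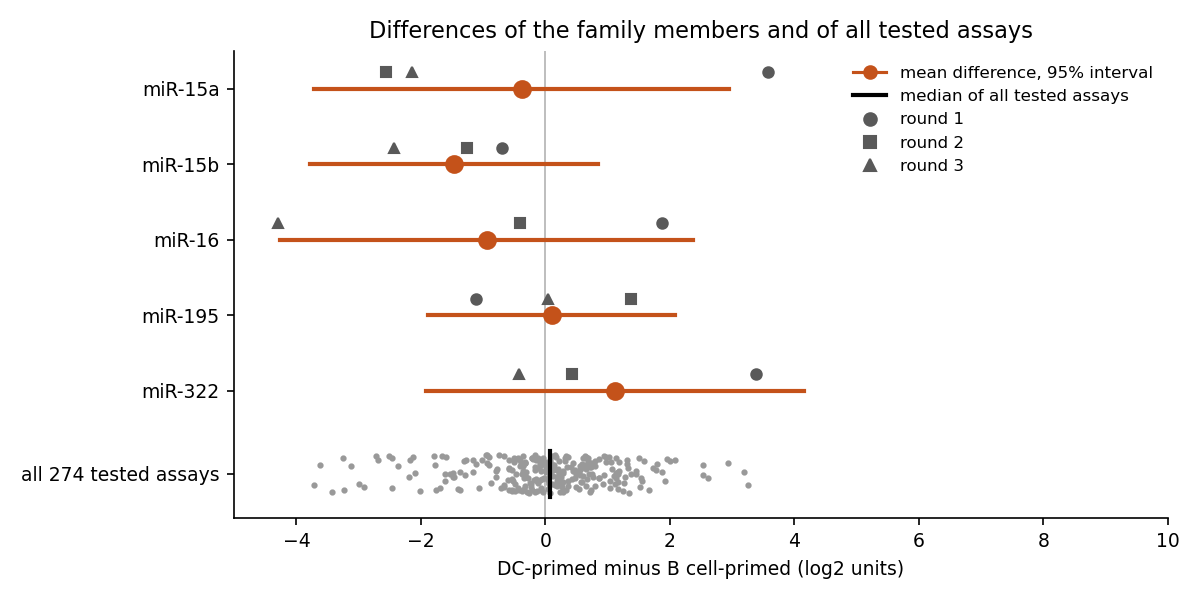
Level after DC priming minus level after B cell priming (log2 units) for each member, with limma's 95% confidence interval (orange line) and the 3 differences by round (grey markers above it). Grey dots in the lowest row are the 274 tested assays, spread vertically for legibility, with their median of 0.07 as a black bar. Every member's interval includes 0.

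The scale did not change the lack of calls but did change directions. Without any normalization the median of all tested assays moved by -1.33 from its value on the authors' scale, and with the small RNAs RNY3 and snoRD47 as the reference it moved by 1.23. The second of these scales rests on the late RNY3 and snoRD47 values of DC-primed samples 2 and 3 given above. On these scales the miR-15b difference was -2.80 and -0.24, that of miR-16 was -2.27 and 0.29, and that of miR-322 was -0.21 and 2.35. That of miR-15a was -1.71 and 0.84, and that of miR-195 was -1.23 and 1.33. miR-15b was therefore the only member whose sign was the same under each of the 4 other scalings that were run and with each single sample left out.

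Position among the assays needs no scaling number. Ranked by Ct from the earliest among the 274 tested assays, miR-16 was at position 8, 25 and 111 in DC-primed samples 1, 2 and 3, and at 21, 22 and 22 in B cell-primed samples 1, 2 and 3. Its place was thus nearly constant after B cell priming and ran over more than 100 positions after DC priming. miR-15b was at 31, 44 and 76 in DC-primed samples and at 17, 29 and 37 in B cell-primed samples. miR-15a was at 36, 131 and 192 in DC-primed samples, against 96, 61 and 113 in B cell-primed samples. miR-322 was at 87, 189 and 267 in DC-primed samples, against 192, 200 and 252 in B cell-primed samples. miR-195 was at 108, 31 and 43 in DC-primed samples and at 71, 63 and 43 in B cell-primed samples, so its latest position was that of DC-primed sample 1. Ct also depends on how well each primer works, so a position is no measure of the number of molecules.

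The levels of most members spread widely within the DC-primed group. All 5 members had a larger SD after DC priming than after B cell priming, as did 79.6% of the tested assays. For miR-16 the SD was 3.37 after DC priming, against 0.27 after B cell priming (n = 3 each). The DC-primed SD was larger than that of 98.2% of the tested assays, and the B cell-primed SD larger than that of 13.9%. The DC-primed SD of miR-15a was 3.21 and that of miR-322 was 2.85, larger than in 97.4% and 95.6% of the assays. Those of miR-15b and miR-195 were 1.84 and 1.53, larger than in 75.9% and 63.9%. The median SD over the tested assays was 1.20 after DC priming and 0.63 after B cell priming. These SDs rest on 3 samples each and were not tested against each other.

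**Figure D3:**
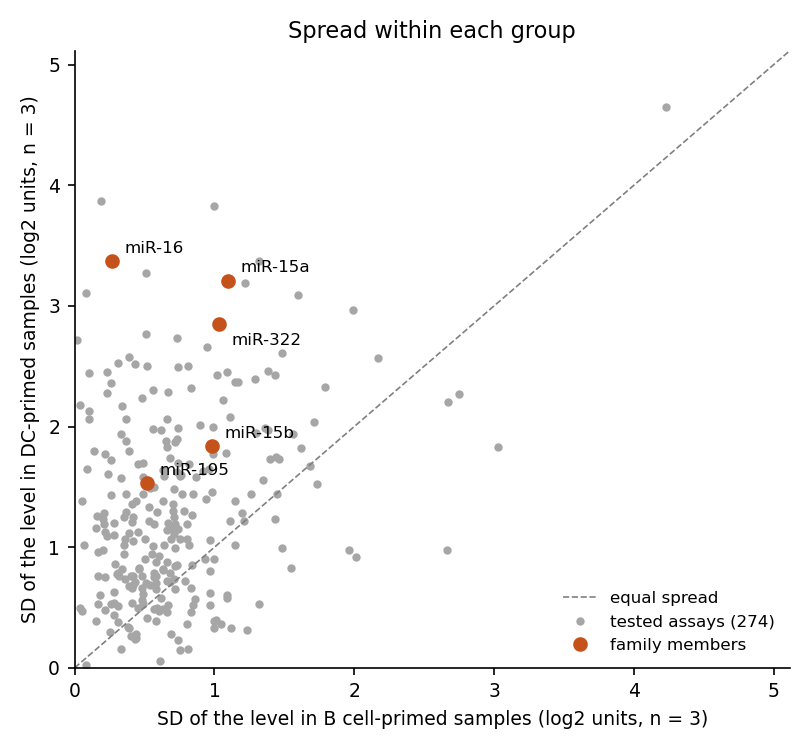
SD of the level over the 3 samples of each group, for B cell-primed (horizontal) and DC-primed cells (vertical), in log2 units. Grey dots are the tested assays, orange dots the family members, and the dashed line marks equal spread. All 5 members are above the line, miR-16 at 3.37 on the vertical and 0.27 on the horizontal axis.

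In raw cycles, miR-16 was 10.89 later in DC-primed sample 3 than in DC-primed sample 1, miR-15a 10.48, miR-322 9.96 and miR-15b 7.95 later. The median of all tested assays was 3.58 cycles later, and miR-195 was 2.08 later. Thus 4 of the 5 members, all but miR-195, had their highest DC-primed level in sample 1 and their lowest in sample 3, as had 24.8% of the tested assays. The sum of a list of 6 myeloid and dendritic cell miRNAs ran the same way, as did assays of other lists. On the linear scale this sum was 168, 25.3 and 2.99 in DC-primed samples 1, 2 and 3. It was 2.5, 3.45 and 1.77 in B cell-primed samples 1, 2 and 3. Within the list miR-147 did not keep this order, with levels of 3.89, -0.77 and -0.11 in DC-primed samples 1, 2 and 3. All 6 had the higher mean level in DC-primed cells, as had all 5 miRNAs of a lymphocyte list. The median difference over all tested assays was 0.07. miR-223, the miRNA most typical of myeloid cells, gave Ct values of 20.82, 27.23 and 36.99 after DC priming and of 32.14, 32.44 and 32.67 after B cell priming. miR-223 and miR-146b were above Ct 35 in DC-primed sample 3. The summed level of 4 lymphocyte miRNAs was 17.3 to 373 after DC priming and 59.2 to 108 after B cell priming, and DC-primed sample 3 was the lowest. The sum of 5 stromal and endothelial miRNAs was 3.7, 2.44 and 2.08 in DC-primed samples 1, 2 and 3, above the 1.26 to 1.41 of the B cell-primed samples. Only 2 of these 5 had the higher mean level in DC-primed cells, however. In DC-primed sample 1 miR-10a had the highest level of the 5, at 1.70, and it was at 0.26 and -1.81 in DC-primed samples 2 and 3. miR-126-3p was at Ct 39.81 and 38.99 in DC-primed samples 2 and 3, against 29.41, 28.98 and 31.86 in B cell-primed samples 1, 2 and 3. The summed level of 3 erythroid miRNAs rose from DC-primed sample 1 to 3, with 0.96, 2.55 and 5.28, and was 2.33 to 4.25 in B cell-primed samples. Of the 3, only miR-486 rose in that order, with levels of -0.47, 0.96 and 2.30. miR-451 and miR-144 were highest in DC-primed sample 2, and miR-144 was at Ct 35.02 in DC-primed sample 3. Of the 3, 2 had the higher mean level in DC-primed cells. The lymphocyte sum leaves out miR-142-3p, which had no Ct in DC-primed sample 3. The count of 5 lymphocyte miRNAs includes miR-142-3p, with a level of 7.99 filled in for that sample. The part of these cell types and of the late Ct values of sample 3 in the family's levels was not tested.

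In level, the star strands of miR-15a, miR-15b, miR-16 and miR-195 varied less over the DC-primed samples than their guides. In raw cycles this held for miR-15a, miR-15b and miR-16 but not for miR-195. The human-named miR-424*, set against the miR-322 guide, went the other way in level, with a DC-primed SD of 4.65 against 2.85. In raw cycles miR-424* varied by 6.21 over these samples and miR-322 by 9.96. miR-16-1*, from the Dleu2 copy, gave Ct values of 25.23, 25.87 and 25.77 in DC-primed samples 1, 2 and 3, against 22.96, 24.91 and 25.54 in B cell-primed samples 1, 2 and 3. In raw cycles the miR-16 guide varied by 10.89 over the DC-primed samples, this star strand by 0.64 and the human-named miR-16-2* by 0.89, where the median assay came 3.58 later in sample 3 than in sample 1. In level, miR-16-1* was at 0.95, 2.59 and 4.69 in DC-primed samples 1, 2 and 3, and at 3.39, 2.21 and 2.09 in B cell-primed samples. It was thus highest in DC-primed sample 3, where the guide was lowest, and its DC-primed SD of 1.87 was below the 3.37 of the guide but above the median of 1.20. The level spanned 6.62 for the guide, 3.73 for miR-16-1* and 3.56 for miR-16-2* over these samples.

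In raw cycles miR-15a* varied by 3.45 cycles where its guide varied by 10.48, miR-15b* by 2.33 where its guide varied by 7.95, and the human-named miR-195* by 2.95 where its guide varied by 2.74. In level the DC-primed SD was 0.49 for miR-15a*, 1.01 for miR-15b* and 0.68 for miR-195*, against 3.21, 1.84 and 1.53 for their guides. The lead of the guide (star Ct minus guide Ct, negative where the star strand came first) of miR-16 over miR-16-1* was 5.68, 1.81 and -4.67 cycles in DC-primed samples 1, 2 and 3, against 1.36, 2.59 and 2.22 in B cell-primed samples 1, 2 and 3. The mean lead was 0.94 ± 5.23 cycles after DC priming and 2.06 ± 0.63 cycles after B cell priming (SD, n = 3 each), a difference that did not pass an exact permutation test (two-sided p = 0.8, with 0.1 the smallest possible).

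The lead of miR-15a over miR-15a* was 6.94, 2.45 and -0.09 cycles in DC-primed samples 1, 2 and 3, and 3.11, 4.68 and 1.62 in B cell-primed samples. That of miR-15b over miR-15b* was 3.42, 0.28 and -2.20 in DC-primed samples and 2.65, 2.04 and 1.83 in B cell-primed samples. For both hairpins the lead was therefore largest in DC-primed sample 1 and negative only in DC-primed sample 3. miR-195 led the human-named miR-195* by 1.83, 3.84 and 2.70 cycles in DC-primed samples, against 2.31, 2.74 and 2.65 in B cell-primed samples, and it led in all 6. Over the 5 guide and star pairs compared, the adjusted exact permutation p was 1 for each. Among the 30 mouse-named hairpins with both assays tested, the median lead was 3.30, 0.67 and 0.18 cycles in DC-primed samples 1, 2 and 3, against 2.02, 1.91 and 1.58 in B cell-primed samples. The star strand was the earlier in 15 of the 30 in DC-primed sample 3, against 7 and 10 in DC-primed samples 1 and 2 and 10 in each B cell-primed sample. Over these 30 hairpins, too, the median lead was smallest in DC-primed sample 3. The pairs of strands were chosen after their values were seen.

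**Figure D4:**
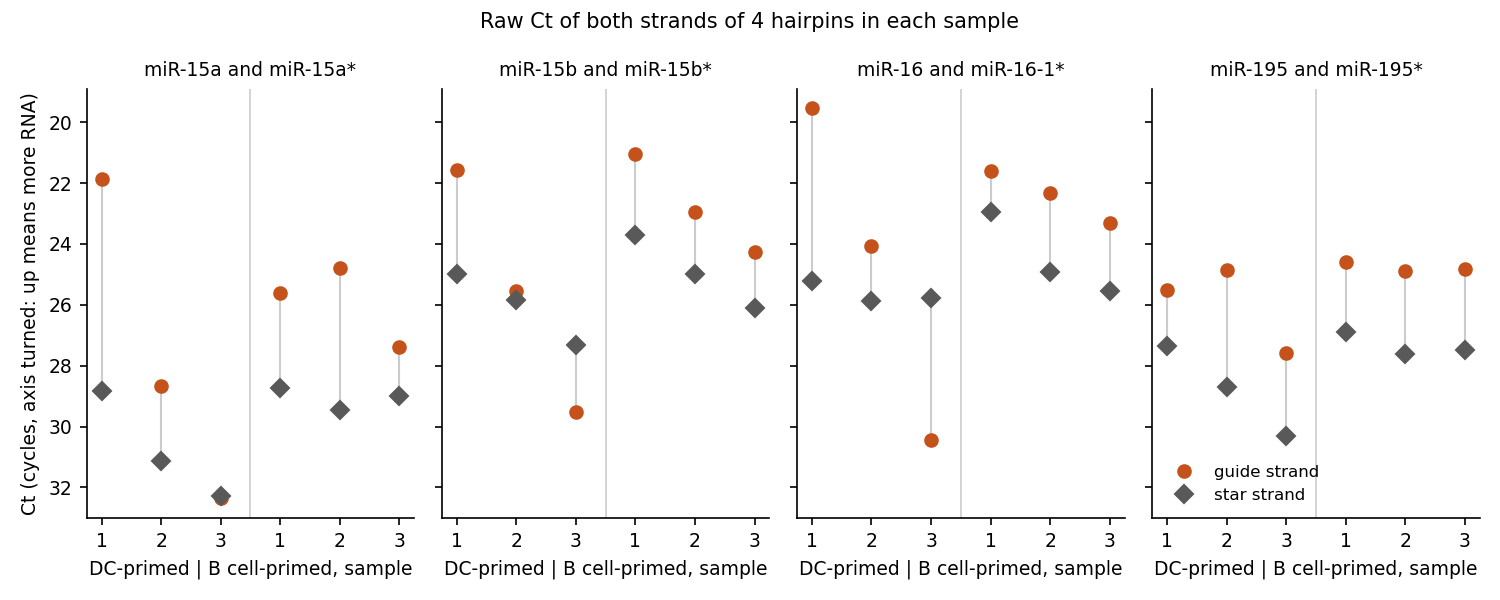
Raw Ct of the guide strand (orange circles) and the star strand (grey diamonds) in each sample for 4 hairpins, with DC-primed samples left of the line and B cell-primed samples right of it, and the axis turned so that more RNA is up. Grey lines join the strands of 1 sample. The miR-16 guide was at Ct 19.55 in DC-primed sample 1 and 30.44 in DC-primed sample 3, while miR-16-1* was at 25.23 and 25.77.

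Of the 6 other assays of the members' hairpins, limma called 0. After DC priming 4 had the higher level and 2 the lower, with a median difference of 0.19. The difference was -0.35 for miR-15a*, 0.21 for miR-15b*, 0.18 for miR-16-1*, 0.72 for miR-16-2* and -0.12 for miR-195*. The human-named miR-424*, named for the human counterpart of the miR-322 hairpin, differed by 1.87 ± 2.55 (SE). Its Ct values were 25.58, 28.19 and 21.98 in DC-primed samples 1, 2 and 3, and 27.64, 28.24 and 21.5 in B cell-primed samples 1, 2 and 3. Both samples of round 3 were thus several cycles earlier than the rest, in the opposite direction to the miR-322 guide.

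Partners of miR-322 in its X-linked cluster were read by 5 assays, of which 2 were tested and 0 called. The mouse-named miR-351 differed by -0.07 ± 0.68 (SE) and miR-450b-5p by -0.91 ± 0.92. The human-named miR-503 was not tested because its Ct was 35.16 in B cell-primed sample 2. Its other Ct values were 30.36, 32.17 and 34.59 in DC-primed samples 1, 2 and 3, and 30.44 and 31.25 in B cell-primed samples 1 and 3. miR-450a-5p was below Ct 35 in 4 samples and the human-named miR-450-3p in 1, so their levels are not compared.

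Differences between assays within a sample need no scaling number, because it cancels. They were compared for 4 pairs of neighbours or paralogs. A negative value means that the second assay of a pair came first. The Ct of miR-16 minus that of miR-15a, its neighbour in Dleu2, was -2.33, -4.62 and -1.92 cycles in DC-primed samples 1, 2 and 3, and -4.02, -2.46 and -4.06 in B cell-primed samples 1, 2 and 3. miR-16 thus came before miR-15a in all 6 samples. The Ct of miR-16 minus that of miR-15b, the neighbour of its other copy, was -2.03, -1.50 and 0.91 in DC-primed samples, and 0.55, -0.64 and -0.95 in B cell-primed samples. The Ct of miR-15a minus that of its paralog miR-15b was 0.30, 3.12 and 2.83 cycles in DC-primed samples and 4.57, 1.82 and 3.11 in B cell-primed samples, so miR-15b came first in all 6. The Ct of the human-named miR-503 minus that of miR-322 was 5.71, 2.08 and -0.02 in DC-primed samples, against 2.24, 5.98 and -0.10 in B cell-primed samples. The value of B cell-primed sample 2 rests on the miR-503 Ct of 35.16, above the detection limit.

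The change of these differences between the groups (DC-primed minus B cell-primed) was 0.56 cycles for miR-15a and miR-16 (two-sided exact permutation p = 0.8), -0.53 for miR-15b and miR-16 (exact p = 0.6), -1.08 for miR-15b and miR-15a (exact p = 0.5) and -0.12 for miR-322 and miR-503 (exact p = 0.8). Without B cell-primed sample 2, and so without the miR-503 value above the limit, the last of these was 1.52. It was also above 0 without DC-primed sample 2 (0.14) and without DC-primed sample 3 (1.19), so leaving out any of these samples turned its sign. Adjusted over the 4 pairs each exact permutation p was 0.8, where 3 samples against 3 allow no unadjusted p below 0.1. For each pair the groups overlapped, and 2 of 3 rounds had the same sign.

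**Figure D5:**
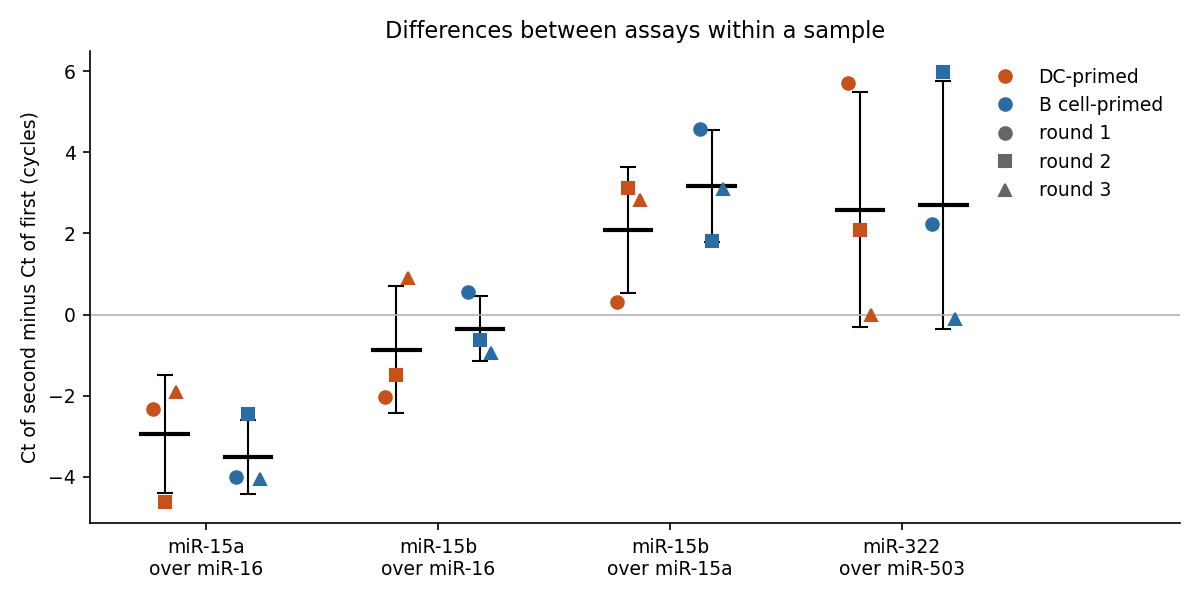
Ct of the second assay minus Ct of the first within each sample (cycles) for 4 pairs, with DC-primed samples left of B cell-primed samples and the round given by the marker. Bars are the mean and SD of 3 samples. The groups overlap for every pair. miR-15b was earlier than miR-15a in all 6 samples.

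Likeness between assays was measured as the root mean square difference of their levels over the 6 samples, after each assay's own mean was taken away. By this measure miR-15a, miR-16 and miR-322 were close to each other, with 1.03 between miR-15a and miR-16, 1.01 between miR-15a and miR-322 and 1.24 between miR-16 and miR-322. miR-15b was at 1.05 from miR-16, 1.31 from miR-15a and 1.46 from miR-322. miR-195 was at 2.13 to 2.78 from the other 4, although its sequence is the closest to that of miR-16. The median distance of a tested assay from miR-16 was 2.27, so miR-195, at 2.65, was farther from miR-16 than most assays were.

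The 2 assays nearest to each member were all outside the family. They were miR-27a at 0.38 and miR-29c at 0.48 for miR-15a, and miR-25 at 0.42 and miR-30e* at 0.50 for miR-15b. For miR-16 they were miR-191 at 0.46 and miR-26b at 0.69, and for miR-322 miR-22* at 0.75 and miR-26a at 0.76. For miR-195 they were the human-named miR-524-5p at 0.16, which belongs to a cluster found in primates, and miR-467b* at 0.21. The profiles share the samples and their scaling number, so likeness is a description of these 6 samples.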

How the data were processed

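SYBR Green RT-PCR measured miRNAs in 6 samples after poly(A) tailing, per the labels' protocols. The names of the Ct and dCt files are swapped relative to their headers, which were followed. The authors deposited raw Ct values for 350 miRNA assays and dCt values for 345. Per the file headers, dCt is Ct minus the geometric mean of a sample's Ct values, a log2 scale with the sign turned. The authors filled in 10 missing values, none of a family member. Each deposited p-value comes from a paired test with both tails and the deposited fold is the ratio DC-primed over B cell-primed, per the file headers. The Ct rule is not given in the sources used here.

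Ct minus the recovered per-sample number gave dCt within 0.02 cycles for all but 9 of 2060 values, all of 2 assays outside the family. Assays with Ct below 35 in all 6 samples (274) were tested with limma 3.58.1 in R 4.3.3 (lmFit, eBayes, no trend, no block, Benjamini-Hochberg over all tested assays, threshold 0.05), after tests on simulated data. Samples were grouped by title. Single differences were compared by exact permutation (scipy 1.17.1), figures drawn with matplotlib 3.10.9 in Python 3.11.15. Precision is limited by 3 samples per group, not by read depth. Members, lists and named assays were chosen with earlier results of these data known. The named assays are the members, the other assays of their hairpins and clusters, assays with the same seed, and the 2 assays nearest to each member in profile. miR-146b, miR-223, miR-142-3p, miR-10a, miR-126-3p, miR-486, miR-451 and miR-144 are named as markers.

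Round numbers come from the titles. Over the tested assays, each DC-primed sample's deviation from its group mean was correlated with that of the B cell-primed sample of its round. The correlations were 0.16, 0.14 and 0.46 in rounds 1, 2 and 3. Of the pairs from different rounds, DC-primed sample 1 with B cell-primed sample 2 was higher than rounds 1 and 2, at 0.33, and the rest were below 0. These values do not settle whether rounds pair the samples. The main limma fit and the exact permutation tests did not pair samples by round, since the labels do not say that rounds share animals. Alternatives were 4 normalizations, 3 detection limits, the round as a block, each sample and each round left out, filled-in values as missing, an eBayes trend and the authors' paired test. A fit without DC-primed sample 3 in the filter, and all alternatives for the comparisons of guide and star strands, were added after the data were seen.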

Additional observations from a re-analysis of the deposited data

How the results depend on the processing

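No setting called a family member: the count was 0 in the main setting and in all 21 alternatives, among them the 6 fits that leave out 1 sample. With the round as a replicate block limma called 0 of 274 assays and 0 members, the smallest adjusted p of a member was 0.479, and no call changed. The count over all assays was 0 to 5 with 1 sample left out: 2 without DC-primed sample 3 and 5 when that sample was also left out of the detection filter, where miR-195 was at -0.14. A Ct limit of 32 left 3 members, miR-15b, miR-16 and miR-195.

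The median difference of the members was -0.38, and with 1 sample left out it was -2.17 to 0.89, lowest without DC-primed sample 1 and highest without DC-primed sample 3. miR-15b was lower in DC-primed cells in all 21 alternatives (-2.80 to -0.24). Those that changed the detection limit, the block, the filled-in values, the trend or the test used the same miR-15b values. Each of these had to return -1.47, so their sign could not differ. With 1 sample left out, miR-15b ran from -2.36 to -0.53, miR-15a from -2.17 to 0.93, miR-16 from -2.42 to 0.89, miR-195 from -0.51 to 0.95 and miR-322 from -0.35 to 2.49. Other reversals were those relative to RNY3 and snoRD47 (miR-15a 0.84, miR-16 0.29), without normalization (miR-195 -1.23, miR-322 -0.21), without round 1 (miR-322 -0.0048), without round 2 (miR-15a 0.71, miR-195 -0.53) and without round 3 (miR-15a 0.50, miR-16 0.74). The median was 0.84 relative to RNY3 and snoRD47 and 0.50 without round 3. At an unadjusted limma p under 0.05 were miR-15a and miR-15b, both lower, without DC-primed sample 1 (with 58 of 274 assays; smallest adjusted p of a member 0.198) and miR-322, higher by 2.49, without DC-primed sample 3 (with 42 of 274; adjusted p 0.276). The cause was not tested.

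Within a sample, with 1 sample left out, the change between groups ran from 0.04 to 1.39 for miR-15a over miR-16, from -1.42 to 0.05 for miR-15b over miR-16, from -1.76 to -0.19 for miR-15b over miR-15a and from -1.68 to 1.52 for miR-322 over miR-503. For guide over star, in alternatives chosen after seeing the data, it ran from -1.96 to 1.56 (miR-15a), -3.13 to -0.32 (miR-15b), -3.49 to 1.69 (miR-16-1*), -3.96 to 1.13 (miR-16-2*) and -0.30 to 0.70 (miR-195). Late Ct limits miR-322 in particular.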
